A study of Mus musculus with 19 samples.

Results

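The expression of 10 genes that carry or lie beside inherited risk of Alzheimer's disease was followed through the RNA-sequencing libraries of CD11b+ brain cells: App, Bin1, Picalm, Inpp5d, Plcg2, Abi3, Ms4a6d, Sorl1, Cd2ap and Abca7. They were chosen by name, each symbol was matched to its Ensembl identifier through GENCODE, and all 10 were found among the 56980 genes of the count table. All 10 were also among the 18739 genes that passed the filter on low counts, and the smallest count of any of them in any library was 715 reads.

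The cells came from male mice of 3 to 4 months and were taken from the brain, without olfactory bulb and cerebellum, on magnetic CD11b beads. The wildtype mice and the PARK7/DJ-1 KO mice, which carry a germline gene trap in Park7 and so lack it in all cells and not in microglia alone, were littermates from heterozygous breeding of a line backcrossed to C57BL/6NCrl. Lipopolysaccharide (LPS, a bacterial cell wall component) was injected intraperitoneally into 5 wildtype and 5 KO mice at a dose of 4 μg per g of weight. As the baseline, 4 wildtype and 5 KO mice received PBS. The cells were collected 6 h later, and 1 library was made per mouse, 19 in all. The comparisons ask how the cells respond to systemic LPS in each genotype and whether loss of DJ-1, a redox-sensitive protein tied to inherited Parkinson's disease, changes that response.

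Total counts ranged from 11936364 to 22788884 reads per library, so that 3 reads correspond to 0.139 to 0.256 CPM (counts scaled to the size of the library). Park7 was measured at 20.6 to 32.1 CPM in the wildtype libraries and at 0.457 to 5.38 CPM in the KO libraries. The microglial identity of the preparation was checked on 14 homeostatic microglia markers, whose summed level was 31060 to 48530 CPM in the PBS libraries and 12350 to 20690 CPM in the LPS libraries. All 14 fell after LPS in both genotypes, with a median log2 fold change (log2FC) of -1.67 in wildtype and -1.51 in KO mice. In such bulk samples, fewer cells of a type and less RNA per cell cannot be told apart. Markers of other cells were present in every group. The summed level of 10 oligodendrocyte markers spanned 584 to 11600 CPM over all libraries. That of 10 monocyte markers was 322 to 736 CPM after PBS and 655 to 1336 CPM after LPS. For 10 neutrophil markers the sum was 427.7 to 720.8 CPM after PBS and 310.1 to 836 CPM after LPS. Although the neutrophil ranges overlapped, 5 of these 10 markers rose and 1 fell after LPS in wildtype mice. In KO mice, 6 rose and 1 fell. The median log2FC of the neutrophil markers was 1.28 in wildtype and 1.17 in KO mice.

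Genome-wide association and sequencing studies of Alzheimer's disease point to a set of genes that are active in microglia, the resident macrophages of the brain. Their products fall into a few cell functions. App encodes the amyloid precursor protein, from which amyloid-β is cut. Sorl1 encodes a sorting receptor that steers App through endosomes together with retromer. Bin1, Picalm and Cd2ap encode adaptors that bend or bind membranes and link them to clathrin or actin during endocytosis. Plcg2, a phospholipase C, and Inpp5d, the phosphatase SHIP1, act on membrane phosphoinositides downstream of receptors such as Trem2. Abi3 belongs to the Abi adaptors of the WAVE actin-regulating complex, Ms4a6d is a membrane protein of the Ms4a cluster, and Abca7 encodes a lipid transporter.

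On GRCm39, App spanned chr16:84746573-84971126 (- strand), Sorl1 chr9:41876012-42035656 (-), Picalm chr7:89779270-89862673 (+) and Cd2ap chr17:43103839-43187613 (-). Inpp5d spanned chr1:87547989-87648230 (+), Plcg2 chr8:118224988-118361881 (+), Abi3 chr11:95720900-95733302 (-), Ms4a6d chr19:11563968-11582213 (-) and Abca7 chr10:79832280-79851410 (+). Reads of these genes were nearly all distinct from those of other genes: of the 75-base windows of the main transcript, 0.521% recurred in another gene for Ms4a6d (in Ms4a6b) and 3.55% for Cd2ap (in the pseudogene Gm6475), and none did for the other members. Abi3 was the exception in its overlap with neighbours, since 44% of its annotated exonic bases lay over exons of Gngt2, Phospho1 or Zfp652 on the opposite strand, against at most 6.11% for any other member, counting overlaps with genes of the count table. Whether the counting used strand is not given in the sources used here.

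The 200 bases before the annotated start site are shown for Picalm, which rose in both genotypes, and for a pair of members that fell in both, Inpp5d and Abi3. The sequences were read 5′ to 3′ on the strand of the gene from the GRCm39 genome at the start of the main GENCODE transcript, and capitals mark the motif matches.
Picalm, chr7:89779070-89779269, + strand: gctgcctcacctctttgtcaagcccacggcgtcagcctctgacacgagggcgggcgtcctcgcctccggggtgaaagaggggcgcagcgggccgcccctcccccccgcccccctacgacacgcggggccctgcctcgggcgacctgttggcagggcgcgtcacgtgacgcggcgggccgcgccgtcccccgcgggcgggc
Inpp5d, chr1:87547834-87548033, + strand: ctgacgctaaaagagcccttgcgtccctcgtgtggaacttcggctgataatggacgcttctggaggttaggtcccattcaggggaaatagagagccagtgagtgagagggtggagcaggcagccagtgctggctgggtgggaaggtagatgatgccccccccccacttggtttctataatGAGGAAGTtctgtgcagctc
Abi3, chr11:95733290-95733489, - strand: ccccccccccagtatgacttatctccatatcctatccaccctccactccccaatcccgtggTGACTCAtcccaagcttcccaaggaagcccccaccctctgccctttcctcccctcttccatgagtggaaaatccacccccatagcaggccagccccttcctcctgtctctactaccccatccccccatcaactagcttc
A set of 4 motifs was searched on both strands in windows of 300 bases, from 250 before the start site to 50 from it on: a PU.1 site (GAGGAAGT), a κB site, an interferon-stimulated response element and an AP-1 site (TGANTCA). Inpp5d held the PU.1 letters at -20 to -13 from the start site, and Abi3 the AP-1 letters at -139 to -133. No other match was found in the windows of the 10 members. Over the windows of 21631 protein-coding genes of the table, 3.09% held the PU.1 letters, 5.02% the κB site, 3.83% the interferon element and 7.16% the AP-1 letters. A match is a description of these letters only.

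The members were chosen as risk genes expressed in microglia, so a high level in these cells at baseline follows from the choice. Per kilobase of annotated exon, the wildtype PBS mean was highest for Inpp5d at 148 ± 19.6 CPM per kb (SD, n = 4), followed by Picalm at 79.9 ± 5.77, Bin1 at 70.2 ± 7.38, Plcg2 at 59 ± 8.05 and Abi3 at 45.9 ± 6.49 CPM per kb. Lower levels per kb were found for Ms4a6d (30.6 ± 4.47), App (22.9 ± 5.31), Cd2ap (15 ± 1.14), Sorl1 (13.4 ± 1.71) and Abca7 (12.3 ± 0.664). Within this order, neighbours overlapped in their mean ± SD from Picalm to Abi3, between Ms4a6d and App, and from Cd2ap to Abca7. These levels rest on the length of all annotated exons and on no isoform. The members stood between the 85.8th (Abca7) and the 99.4th percentile (Inpp5d) of 18616 genes with a length. After LPS in wildtype mice, Ms4a6d was the highest at 440.4 ± 35.1 CPM per kb (n = 5) and the 99.8th percentile, whereas Bin1 had moved from the 98.5th to the 89.6th percentile at 18.8 ± 7.45 CPM per kb.

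**Figure D1:**
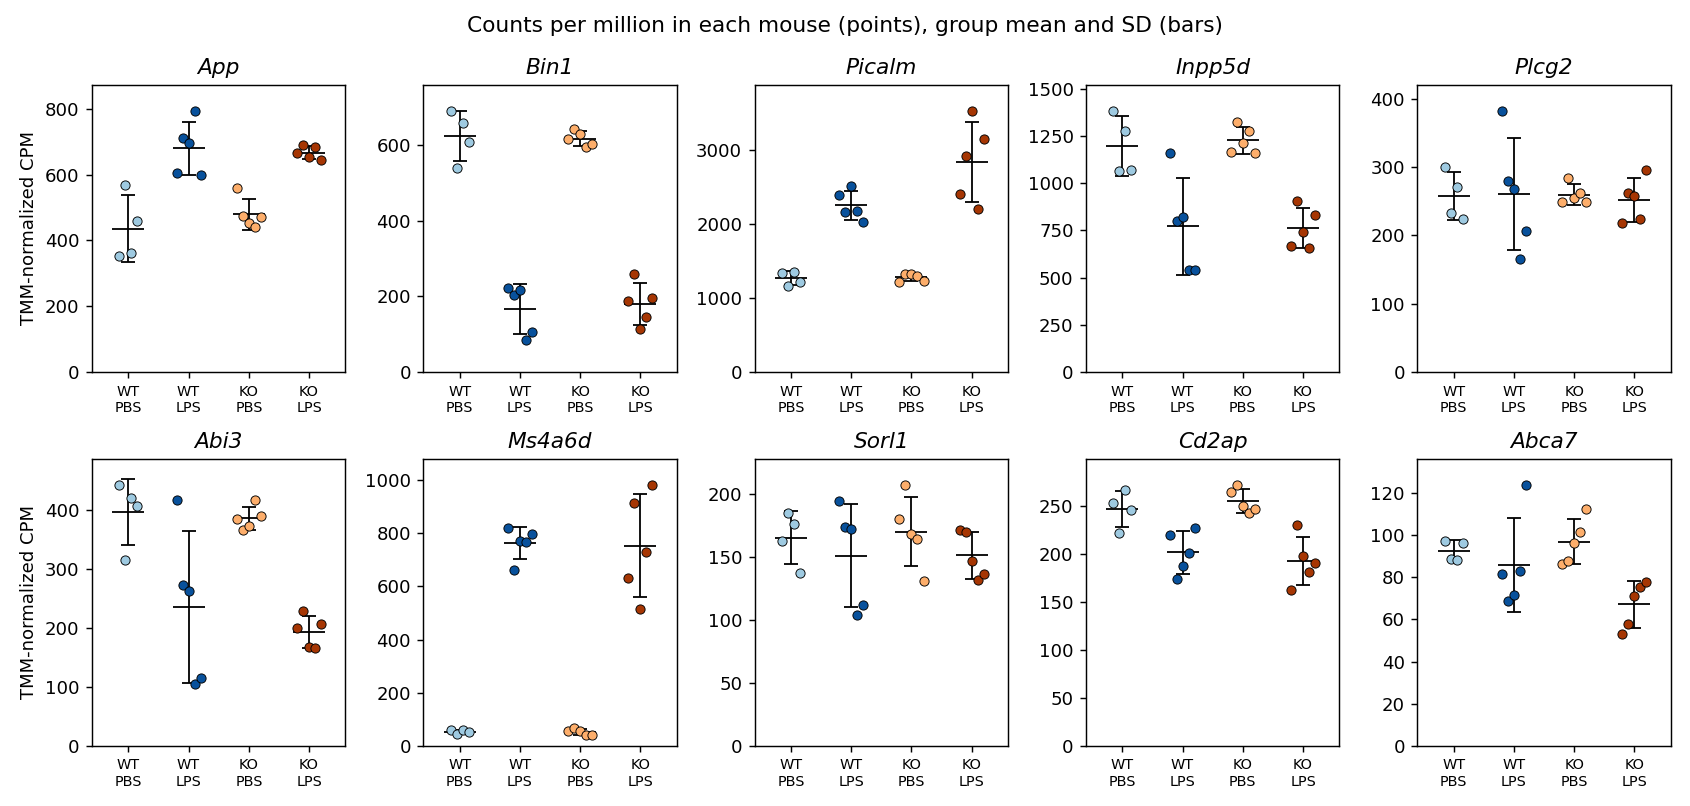
Levels of the 10 genes in the 19 libraries, in TMM-normalized CPM on a linear axis that starts at 0, for wildtype (WT) and PARK7/DJ-1 KO mice after PBS or LPS. Each point is 1 mouse and the bars give the group mean and SD. The LPS points lie above all PBS points of the same genotype for Ms4a6d, Picalm and App and below them for Bin1 in both genotypes.

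A change after LPS was called at an adjusted p-value under 0.05 and a log2FC of at least 0.5 in either direction, with edgeR's quasi-likelihood test and Benjamini-Hochberg adjustment over all genes tested. In wildtype mice, 3 of the 10 members rose (App, Picalm, Ms4a6d) and 3 fell (Bin1, Inpp5d, Abi3), where 18.4% of all genes rose and 17.4% fell. In KO mice, 2 rose (Picalm, Ms4a6d) and 4 fell (Bin1, Inpp5d, Abi3, Abca7), beside 20.1% and 19% of all genes. The median log2FC of the members was -0.12 in wildtype and -0.29 in KO mice, against -0.06 and -0.01 over all genes. The LPS and PBS groups did not overlap for 4 members in wildtype (37.8% of all genes) and for 8 in KO mice (32.8%). In all, 5 members were called in both genotypes in the same direction, beside 32.2% of all genes, and Plcg2, Sorl1 and Cd2ap were called in neither.

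**Figure D2:**
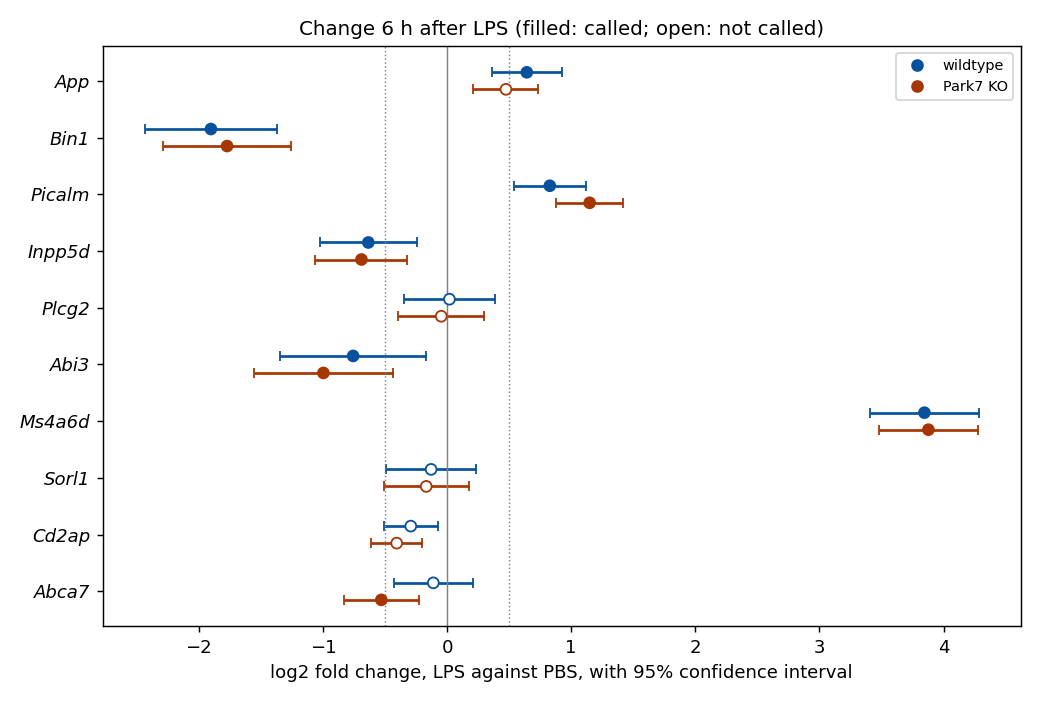
Change of each gene 6 h after LPS, as the log2 fold change of LPS against PBS with its 95% confidence interval, in wildtype (upper point) and KO mice (lower point). Filled points were called, open points were not, and dotted lines mark 0.5 in each direction. Ms4a6d stands at 3.85 and 3.88, Bin1 at -1.90 and -1.77, and the other 8 genes lie between -0.996 and 1.15.

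App, the amyloid precursor, was measured in wildtype PBS mice at 354, 568, 360.5 and 459.9 CPM and in wildtype LPS mice at 606, 709.6, 695, 793 and 597 CPM. The KO values were 560.5, 473, 452, 442 and 472 CPM after PBS and 665, 689, 654, 682 and 643 CPM after LPS. All LPS mice of a genotype lay above all its PBS mice, and the PBS mice closest to them were wildtype mouse 2 and KO mouse 1. App rose in wildtype mice by a log2FC of 0.64 (SE 0.134, adjusted p = 0.000666). In KO mice its log2FC was 0.47 (SE 0.125, adjusted p = 0.00404), which is under the fold threshold. The difference between these responses was -0.17 (95% confidence interval -0.55 to 0.21, unadjusted p = 0.366 by edgeR), so that no difference between the genotypes was shown. It was -0.33 without wildtype PBS mouse 2 (unadjusted p = 0.0628), and -0.08 and -0.09 without wildtype PBS mouse 1 or 3.

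App is also expressed by neurons, oligodendrocytes and astrocytes. The PBS mouse with the highest App in each genotype, wildtype mouse 2 and KO mouse 1, was also the one with the highest mean log2 CPM over 40 oligodendrocyte, astrocyte, neuron and endothelial markers in its group (6.24 and 5.96, against 4.01 to 5.01 and 4.14 to 5.10 in the other mice). After LPS the order differed: KO mouse 1 had the highest marker mean (6.14) and KO mouse 5 the lowest (3.08) while App spanned 643 to 689 CPM in KO mice, and in wildtype mice the marker mean was highest in mouse 2 (5.76) and App in mouse 4 (793 CPM). Some of the 40 markers were themselves called after LPS in both genotypes, so their mean is not a measure of these cells alone. These were 1 astrocyte and 1 neuron marker that rose and 4 endothelial and pericyte markers that fell. With this marker mean as a covariate, the log2FC of App was 0.67 in wildtype (adjusted p = 7.59e-05) and 0.51 in KO mice (adjusted p = 0.000573), and App was then called in both. Without KO PBS mouse 1, the value in KO mice was 0.54 (adjusted p = 0.0028). The part of other brain cells in the values of App was not tested.

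Of 21 other genes of App processing, 3 rose and 5 fell in wildtype and 3 rose and 6 fell in KO mice, with median log2FCs of -0.15 and -0.43. Adam9, a metalloproteinase able to cut App, rose from 87.4 ± 8.02 to 267 ± 23.2 CPM in wildtype mice (SD, n = 4 and 5), a log2FC of 1.61, and Psen2, a catalytic subunit of γ-secretase, from 21.3 ± 1.93 to 48.2 ± 7.13 CPM (1.18). Itm2b, a membrane protein that binds App, fell from 1593 ± 286 to 618 ± 50.3 CPM (-1.37), and Aph1c, another γ-secretase subunit, from 11.6 ± 3.96 to 3.78 ± 1.27 CPM (-1.62). All 4 moved in the same direction in KO mice.

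Sorl1, the sorting receptor for App, was measured at 163, 185, 176 and 137 CPM in wildtype PBS mice and at 194, 173, 172, 104 and 112 CPM in wildtype LPS mice. In KO mice the values were 179.5, 207, 168, 164 and 131 CPM after PBS and 172, 169.6, 147, 131 and 137 CPM after LPS. The groups overlapped in both genotypes. The log2FC was -0.13 in wildtype (95% confidence interval -0.49 to 0.24, adjusted p = 0.601) and -0.17 in KO mice (-0.51 to 0.18, adjusted p = 0.437), intervals that leave room for changes of up to 0.51 in size. Leaving out 1 mouse moved the wildtype value of Sorl1 between -0.23 (without LPS mouse 1) and -0.02 (without LPS mouse 4), and the KO value between -0.24 and -0.09 (without PBS mouse 5 or 2). Among 19 genes of the Sorl1 family, retromer and the sorting nexins, 1 rose and 2 fell in each genotype. The riser in wildtype that was also called in KO mice was Snx1, a sorting nexin of the retromer coat, at 60.6 ± 5.25 CPM after PBS and 166 ± 22.8 CPM after LPS (log2FC 1.45 in wildtype and 1.61 in KO mice). Snx5, its partner, fell by 0.72 and 0.77 on the log2 scale.

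Among the endocytic adaptors, Bin1, an amphiphysin that bends membranes, showed the largest fall of the 10 genes. Wildtype PBS mice had 690.3, 539, 658 and 608 CPM, and wildtype LPS mice 223, 205, 216, 84.6 and 106 CPM. KO mice had 616, 643, 629, 595 and 602 CPM after PBS and 189, 259, 113, 146 and 196 CPM after LPS. No LPS library reached a PBS library, and wildtype LPS mice 4 and 5 were the lowest of all. Bin1 fell by a log2FC of -1.90 in wildtype (SE 0.255, adjusted p = 6.9e-06), which is 3.74-fold, and of -1.77 in KO mice (SE 0.245, adjusted p = 7.82e-06).

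Picalm, a clathrin assembly protein, went the other way. It was measured at 1336, 1169, 1358 and 1216 CPM in wildtype PBS mice and at 2387, 2158, 2517, 2179 and 2032 CPM in wildtype LPS mice. In KO mice the PBS values were 1220, 1328, 1323, 1298 and 1237 CPM and the LPS values 2404, 2917, 3528, 2205 and 3151 CPM. The groups were apart in both genotypes, and the spread between KO LPS mice (SD 541) was wider than between wildtype LPS mice (SD 194). Picalm rose by a log2FC of 0.83 in wildtype (SE 0.138, adjusted p = 7.52e-05) and of 1.15 in KO mice (SE 0.129, adjusted p = 6.91e-07), 1.78-fold and 2.22-fold.

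Cd2ap, an adaptor between membrane receptors and actin, was measured at 253, 223, 268 and 246 CPM after PBS and 219.8, 174, 188, 201 and 228 CPM after LPS in wildtype mice. The KO values were 265, 273, 250.3, 243 and 247 CPM after PBS and 162, 231, 199, 182 and 190.5 CPM after LPS. In wildtype, LPS mouse 5 lay above PBS mouse 2, and the KO groups were apart. Its log2FC was -0.29 in wildtype (SE 0.103, adjusted p = 0.0291) and -0.41 in KO mice (SE 0.0978, adjusted p = 0.00206), in both under the fold threshold.

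Of 35 other genes of clathrin-mediated endocytosis, 5 rose and 6 fell in wildtype and 7 rose and 5 fell in KO mice, with median log2FCs of 0.00319 and 0.08. The clathrin heavy chain Cltc fell from 1491 ± 291 to 874 ± 50.4 CPM in wildtype mice (log2FC -0.77, and -0.69 in KO mice). Sh3kbp1, the closest relative of Cd2ap, fell as well (-1.09 and -1.10). Dab2, a clathrin adaptor of lipoprotein receptors, rose from 168 ± 15.5 to 319 ± 57.3 CPM (0.92 and 1.05), and so did Capza2, an actin-capping subunit (0.82 in both genotypes).

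Inpp5d, the phosphatase SHIP1 that removes the 5-phosphate of PIP3, was measured at 1383, 1063, 1279 and 1070 CPM in wildtype PBS mice and at 1162, 802, 821, 538 and 539 CPM in wildtype LPS mice. KO mice had 1164, 1324, 1214, 1275 and 1163 CPM after PBS and 669.7, 906, 741, 659 and 832 CPM after LPS. In wildtype, LPS mouse 1 lay within the PBS range and mice 4 and 5 far under it, whereas the KO groups were apart. Inpp5d fell by a log2FC of -0.63 in wildtype (SE 0.186, adjusted p = 0.00958) and of -0.69 in KO mice (SE 0.177, adjusted p = 0.00333).

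Plcg2, the phospholipase C-γ2 of immune receptors, was measured at 301, 233, 270.5 and 225 CPM after PBS and at 382, 280.4, 268, 166 and 206 CPM after LPS in wildtype mice. The KO values were 248, 284, 255, 262 and 249 CPM after PBS and 218, 263, 258, 224 and 296 CPM after LPS. The wildtype LPS mice spanned a wider range than the PBS mice on both sides. The log2FC was 0.02 in wildtype (95% confidence interval -0.35 to 0.39, adjusted p = 0.944) and -0.05 in KO mice (-0.39 to 0.30, adjusted p = 0.85). The sign depended on single mice: the wildtype value of Plcg2 was -0.16 without LPS mouse 1 and 0.15 without LPS mouse 4, and the KO value was -0.11 without LPS mouse 5 and 0.02 without LPS mouse 1.

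Of 34 other genes of Trem2, Syk and phosphoinositide signalling, 12 rose and 9 fell in wildtype and 10 rose and 10 fell in KO mice, with median log2FCs of -0.09 and -0.20. Trem2, the microglial lipid receptor upstream of Plcg2, fell from 632 ± 131 to 183 ± 39 CPM in wildtype mice (log2FC -1.79, and -1.55 in KO mice). Rasgrp3, an activator of Ras proteins that is recruited by diacylglycerol, fell from 375 ± 63.7 to 76.8 ± 36 CPM (-2.29 and -2.51). The Src family kinase Fgr rose from 7.25 ± 1.82 to 242 ± 83.5 CPM (5.06 and 4.90).

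Abi3, the Abi adaptor of myeloid cells, was measured at 443, 316, 421 and 408 CPM in wildtype PBS mice and at 418, 272, 263, 106 and 115 CPM in wildtype LPS mice. KO mice had 386, 366, 373, 417 and 389 CPM after PBS and 199, 229, 168, 165 and 206 CPM after LPS. The wildtype LPS values fell into a wide range, from a mouse at the PBS level to 2 mice under every KO LPS mouse, while the KO groups were apart. Its log2FC was -0.76 in wildtype (SE 0.28, adjusted p = 0.0366) and -0.996 in KO mice (SE 0.268, adjusted p = 0.00478). The wildtype call was lost without wildtype LPS mouse 4 (-0.57, adjusted p = 0.0762) or 5 (-0.58, adjusted p = 0.0837) and without wildtype PBS mouse 1, 3 or 4 (adjusted p = 0.0748 to 0.082).

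Zfp652 and Gngt2, which share exonic bases with Abi3 on the opposite strand, also fell, by log2FCs of -1.10 and -0.73 in wildtype and -1.31 and -0.77 in KO mice. Their mean levels over all libraries were 307 and 10.4 CPM, and their part in the counts of Abi3 was not tested. Of 16 other genes of the WAVE complex and the Abi family, 3 rose and 3 fell in wildtype and 3 rose and 2 fell in KO mice. Cyfip1 and Wasf2, core subunits of the complex, fell from 1041 ± 233 to 618 ± 47.6 CPM and from 787 ± 103 to 525 ± 81.3 CPM in wildtype mice (log2FC -0.75 and -0.58). Actr3 of the Arp2/3 complex and the GTPase Rac2 rose from 248 ± 29.5 to 599.8 ± 88.7 CPM and from 90.3 ± 14.4 to 202 ± 33.7 CPM (1.27 and 1.16). The 4 genes moved the same way in KO mice.

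Wildtype LPS mice 4 and 5 gave the 2 lowest values of their group for Bin1, Inpp5d, Plcg2, Abi3 and Sorl1, 5 of the 10 members, and mouse 1 gave the highest value for these 5 genes. The total counts of mice 4, 5 and 1 were 15704311, 11936364 and 17340044 reads. Over all genes tested, 9.94% showed this order of the 3 mice. The summed level of the 14 homeostatic microglia markers was also lowest in mice 4 and 5 (12350 and 12640 CPM) and highest in mouse 1 (20690 CPM), and that of 10 border-associated macrophage markers was 2727 CPM in mouse 1 and 1376 to 1640 CPM in the other 4. The 10 monocyte markers ran the other way, at 795 CPM in mouse 1, the lowest, and 1336 and 1213 CPM in mice 4 and 5, the highest. Mouse 1 was also lowest in oligodendrocyte markers (584 CPM, against 1256 to 7151 CPM) and in endothelial and pericyte markers (186 CPM, against 356 to 844 CPM). The part of these cells in these values was not tested. No such split was seen for Picalm or Ms4a6d, for which all 5 mice were within 2032 to 2517 CPM and 662 to 821 CPM.

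Ms4a6d showed the largest change of the 10 genes. It was measured at 59.7, 43.3, 59 and 50.5 CPM in wildtype PBS mice and at 821, 662, 771, 769 and 798 CPM in wildtype LPS mice. In KO mice it stood at 54.9, 66.5, 54, 39.3 and 41.5 CPM after PBS and 631, 914, 513, 728 and 982 CPM after LPS. Every LPS library lay far above every PBS library, with more spread in KO (SD 195) than in wildtype mice (SD 60.9). The highest KO value came from LPS mouse 5, whose library stood apart from its group on principal components 1 and 2 of log2 CPM (-112 and -114). The other KO LPS mice were at -71.8 to -40.4 and -5.5 to 76.9. Ms4a6d rose 14.4-fold in wildtype (log2FC 3.85, SE 0.209, adjusted p = 3.32e-10) and 14.7-fold in KO mice (3.88, SE 0.191, adjusted p = 5.35e-11). By log2FC it ranked 218th and 204th from the top of the 18739 genes.

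The Ms4a cluster encodes membrane proteins with 4 membrane-spanning segments, several of them restricted to macrophages or lymphocytes. Of 18 other Ms4a genes, 8 passed the filter on low counts, a filter that a gene can pass through the group in which it is high. Of these 8, 6 rose and 2 fell in both genotypes. Ms4a6c rose from 38.9 ± 2.83 to 373 ± 53.8 CPM in wildtype mice (log2FC 3.26, and 3.16 in KO mice), and Ms4a4c from 1.72 ± 0.23 to 95.2 ± 30.2 CPM (5.79 and 5.31). Ms4a7, a marker of border macrophages, fell from 19.1 ± 3.29 to 6.16 ± 1.76 CPM (-1.63 and -1.59), and Ms4a14 from 2.69 ± 0.534 to 1.05 ± 0.573 CPM (-1.36 and -1.67). Ms4a6d and several of its relatives are also expressed by monocytes. Of 10 monocyte markers, 8 rose in wildtype and 7 in KO mice, with summed levels of 795 to 1336 CPM in wildtype LPS mice and 655 to 1230 CPM in KO LPS mice, and their part in the rise of the Ms4a genes was not tested.

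**Figure D3:**
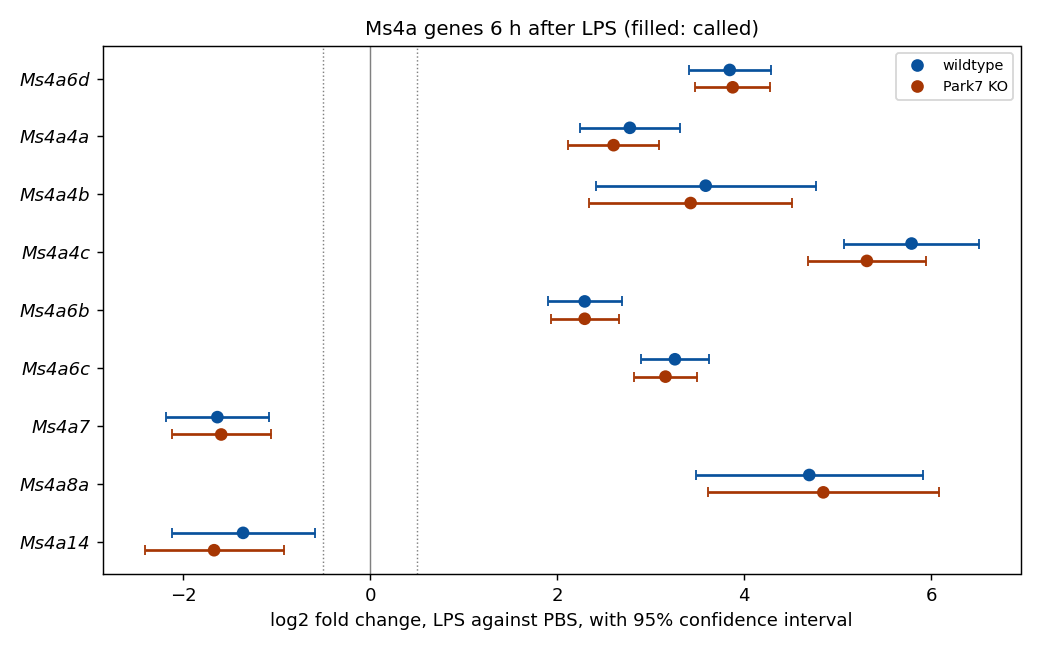
Change of Ms4a6d and the 8 other Ms4a genes that passed the filter on low counts, as the log2 fold change of LPS against PBS with its 95% confidence interval, in wildtype (upper point) and KO mice (lower point). All points are filled, meaning called. Ms4a7 and Ms4a14 lie left of 0 and the other 7 genes lie right of 2.

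Abca7, a transporter of phospholipids and cholesterol, was measured at 97.5, 88.6, 88.1 and 96.4 CPM in wildtype PBS mice and at 81.7, 68.9, 71.7, 83 and 124 CPM in wildtype LPS mice. KO mice had 86.3, 87.9, 96.3, 102 and 112 CPM after PBS and 53.1, 58, 70.9, 75.6 and 78 CPM after LPS. The 4 lower wildtype LPS mice lay under all wildtype PBS mice, mouse 5 lay above them, and the KO groups were apart. The log2FC was -0.11 in wildtype (95% confidence interval -0.43 to 0.21, adjusted p = 0.611) and -0.53 in KO mice (SE 0.145, adjusted p = 0.00539), a fall. The wildtype value was -0.28 without wildtype LPS mouse 5 (adjusted p = 0.0873) and -0.02 without wildtype LPS mouse 2 (adjusted p = 0.919). The KO call was lost by the fold threshold without KO LPS mouse 1 (-0.44) or 2 (-0.48) or KO PBS mouse 5 (-0.46).

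Of 13 other tested ABCA and ABCG transporters, 1 rose and 4 fell in wildtype and 1 rose and 3 fell in KO mice, with median log2FCs of -0.47 and -0.57. Abca1, which loads cholesterol onto ApoE, rose from 1172 ± 155 to 2346 ± 345 CPM in wildtype mice (log2FC 1.00, and 1.18 in KO mice). Abca9 fell from 1072 ± 190 to 176 ± 54.5 CPM (-2.61 and -2.17), and Abca3 from 147 ± 7.04 to 85.3 ± 15.6 CPM (-0.79 and -0.90).

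A wider list of 36 other genes at Alzheimer's disease risk loci, 35 of them tested, held 7 that rose and 10 that fell in wildtype and 8 and 12 in KO mice. Its median log2FC was -0.12 in wildtype and -0.23 in KO mice. Besides Snx1, which both lists hold, Spi1 rose, the gene of the myeloid transcription factor PU.1, from 150.2 ± 20.3 to 308 ± 47.3 CPM in wildtype mice (log2FC 1.03, and 0.97 in KO mice). Siglech, a gene of the Siglec family that is also among the homeostatic microglia markers, fell from 1012 ± 251 to 299 ± 39 CPM (-1.76 and -1.43). Tmem106b, a lysosomal membrane protein, fell from 209.9 ± 14.3 to 93.9 ± 12.8 CPM (-1.16 and -1.26).

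**Figure D4:**
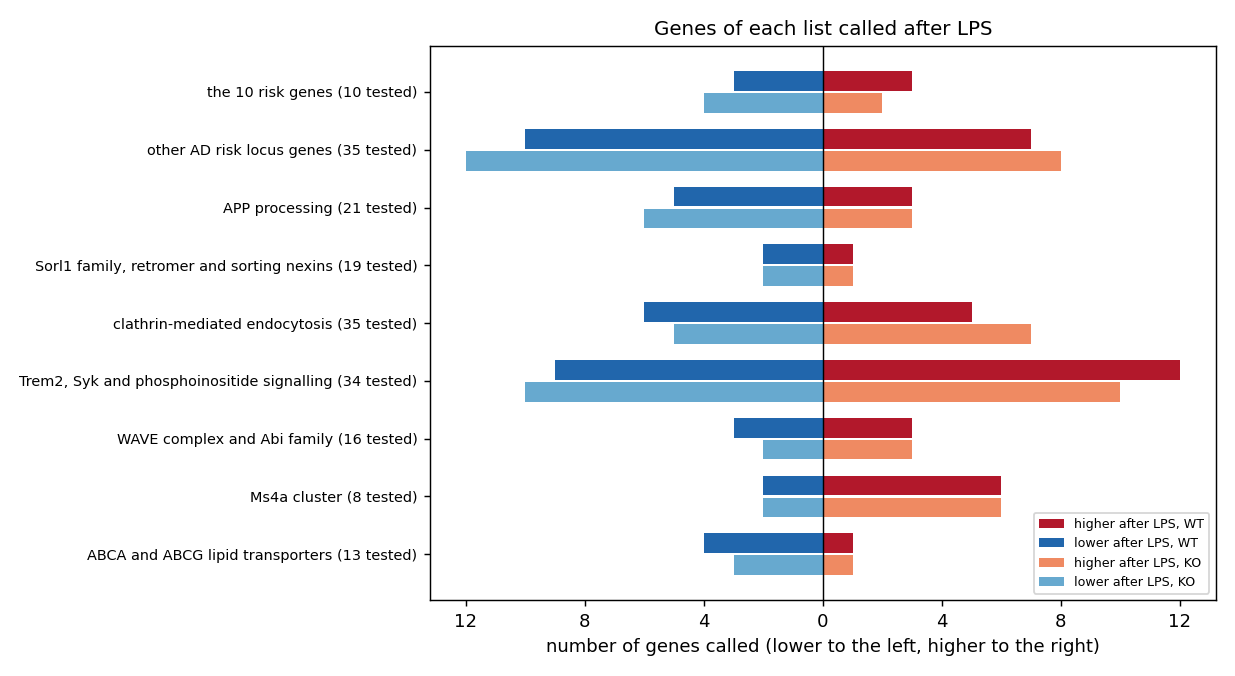
Number of genes called after LPS in each list, with genes that fell drawn to the left of 0 and genes that rose to the right, in wildtype (dark bars) and KO mice (light bars). The label of each list gives how many of its genes were tested. Both directions are present in every list, with 12 risers and 9 genes that fell in the Trem2 and Syk list in wildtype mice.

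Between the genotypes, no member was called. The rule for these comparisons was an unadjusted p-value under 0.05 with a log2FC of at least 0.5 in either direction, and it called 1.31% of all genes after LPS and 0.8% at baseline, where 2.57% and 1.04% had an unadjusted p-value under 0.05. At an adjusted p-value under 0.05, 0.0107% of all genes were called after LPS and 0.00534% at baseline. In both cases Park7 was among them, with log2FCs of -2.88 (adjusted p = 0.00679) and -3.74 (adjusted p = 0.000389). For none of the 10 genes were the KO and the wildtype mice apart, after LPS (0.219% of all genes) or at baseline (0.971%). The adjusted p was 1 for every member in both comparisons.

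After LPS, 2 members had an unadjusted p-value under 0.05 by edgeR. Picalm was at 2254 ± 194 CPM in wildtype and 2841 ± 541 CPM in KO mice (SD, n = 5 each), a log2FC of 0.33 in KO against wildtype (95% confidence interval 0.07 to 0.60, unadjusted p = 0.0175). The highest 3 values were those of KO mice, while the lowest KO mice lay within the wildtype range. Without KO LPS mouse 3 the log2FC was 0.24 (unadjusted p = 0.064). Abca7 was at 85.9 ± 22.2 CPM in wildtype and 67.1 ± 11 CPM in KO mice, a log2FC of -0.35 (-0.66 to -0.05, unadjusted p = 0.0243), which was -0.18 without wildtype LPS mouse 5 (unadjusted p = 0.134). For the other 8 genes the log2FC lay between -0.28 (Abi3) and 0.11 (Bin1), limits that depend on single mice. Abi3 was at -0.46 and -0.45 without wildtype LPS mouse 4 or 5 and at 0.03 without mouse 1, and Bin1 was at -0.05 without wildtype LPS mouse 4 or KO LPS mouse 2 and at 0.24 without wildtype LPS mouse 1 or KO LPS mouse 3. Of these 8, Cd2ap and App had the narrowest intervals (-0.27 to 0.14 and -0.29 to 0.23), and Abi3 the widest (-0.84 to 0.28).

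At baseline, the log2FC of KO against wildtype lay between -0.05 (Ms4a6d) and 0.14 (App) for the 10 genes, and the smallest unadjusted p was 0.304, for App. The intervals reached from -0.17 to 0.26 for Cd2ap and from -0.63 to 0.55 for Abi3. The log2FC of App was 0.30 without wildtype PBS mouse 2 (unadjusted p = 0.0295) and 0.05 without mouse 1. That of Ms4a6d was -0.16 without KO PBS mouse 2 and 0.03 without mouse 4.

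The difference of the LPS response between the genotypes was tested as the interaction of genotype and LPS. At an adjusted p-value under 0.05 it called 0 of the 18739 genes (0%) by edgeR, with 0.961% of genes at an unadjusted p-value under 0.05, and no member was among the latter with all mice in the fit. The interaction was -0.42 for Abca7 (95% confidence interval -0.86 to 0.02, unadjusted p = 0.0619) and 0.32 for Picalm (-0.07 to 0.71, unadjusted p = 0.102). Leaving out 1 mouse moved the value of Abca7 between -0.49 (without wildtype LPS mouse 2, unadjusted p = 0.0308) and -0.25 (without wildtype LPS mouse 5, unadjusted p = 0.153), and that of Picalm between 0.23 (without KO LPS mouse 3, unadjusted p = 0.203) and 0.39 (without KO LPS mouse 4, unadjusted p = 0.0424). It was within 0.24 of 0 for the other 8 genes, with Abi3 ranging from -0.43 to 0.07 without wildtype LPS mouse 4 or 1. For Ms4a6d it was 0.03 (-0.49 to 0.55). Outside the members, 2 genes of the lists were called between genotypes, both lower in KO mice after LPS. Ms4a8a of the Ms4a cluster was at 2.86 ± 0.944 CPM in wildtype and 1.41 ± 0.551 CPM in KO mice (log2FC -1.01, unadjusted p = 0.0216, adjusted p = 1, by edgeR), with overlapping groups. Siglec1, a sialic acid receptor in the border-associated macrophage list, was at 127 ± 35.6 CPM in wildtype and 85.9 ± 32.8 CPM in KO mice (log2FC -0.56, unadjusted p = 0.0227, adjusted p = 1), also with overlapping groups.

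**Figure D5:**
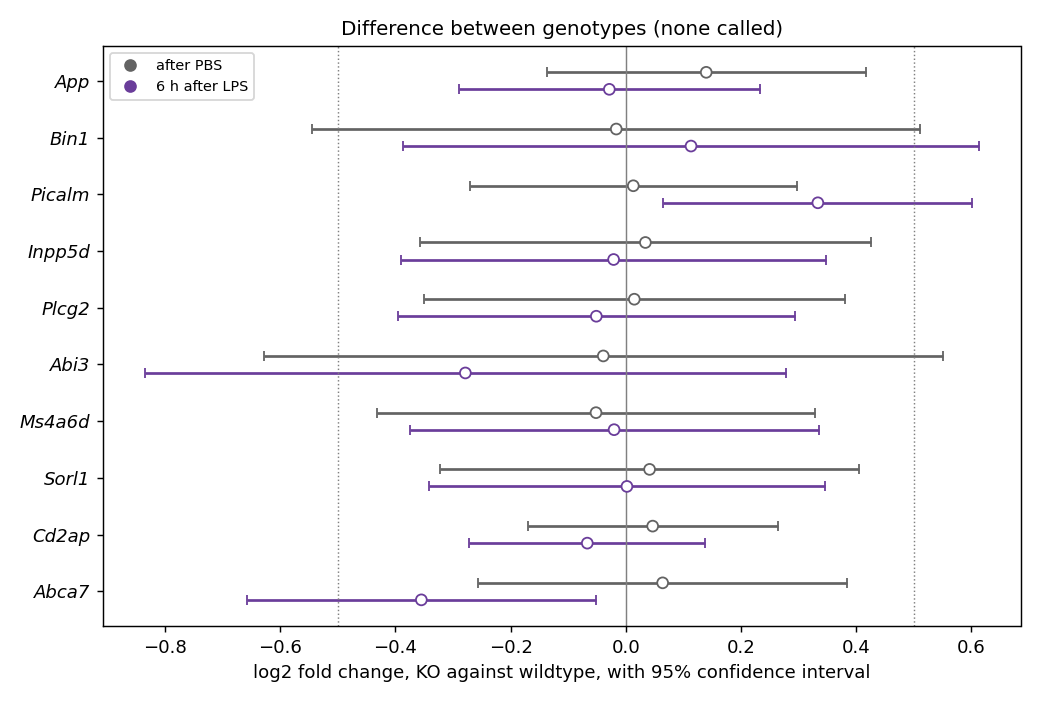
Difference between the genotypes, as the log2 fold change of KO against wildtype with its 95% confidence interval, after PBS (upper point) and 6 h after LPS (lower point). All points are open because no gene was called, and dotted lines mark 0.5 in each direction. Only the LPS intervals of Picalm (0.07 to 0.60) and Abca7 (-0.66 to -0.05) leave out 0.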

How the data were processed

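RNA was sequenced from CD11b+ brain cells of 19 mice. The authors prepared ribosome-depleted stranded total RNA libraries, trimmed the reads with Cutadapt, and used STAR 2.7.9a for mapping and counting on GRCm39. What they deposited are unnormalized read counts, 1 column per mouse, matched here by column name and label. GENCODE M39 on this build named 56236 of 56980 genes.

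The counts were filtered with filterByExpr of edgeR 4.0.16 in R 4.3.3 (minimum count 10, minimum total 15), normalized by TMM and fitted in 1 quasi-likelihood model of 4 groups, from which 5 contrasts were taken, with Benjamini-Hochberg adjustment over all genes tested. The SE is the log2FC divided by the square root of F. Limits from counts cover counting error only. Alternatives were DESeq2 1.42.0, other size factors, filters and covariates, a replicate block and leaving out each mouse.

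All 10 members were named. From each other list, up to 2 genes per direction were named, with the smallest adjusted p in wildtype among those called in both genotypes, and any called between genotypes, while cell type markers were reported by list. A gene that this rule names and a sequence are not reported here. The members and lists were chosen with earlier results of these data known. Each mouse is 1 replicate, and no 2 libraries of a group held the same counts.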

Additional observations from a re-analysis of the deposited data

Results flagged for a closer look

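In 40 groups of 4 or 5 mice (10 genes, 4 groups), the distance of the highest or lowest mouse from its nearest neighbour was set against the range of the group by Dixon's test, which by chance flags about 1 group in 20. It singled out 2 values. App in KO PBS mouse 1 was 560.5 CPM, with the other 4 mice of the group at 442 to 473 CPM, a gap of 0.737 of the range against a critical value of 0.71. Abca7 in wildtype LPS mouse 5 was 124 CPM, with the other 4 mice at 68.9 to 83 CPM, a gap of 0.744 of the range.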

How the results depend on the processing

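Over 1000 values of the 10 genes under other settings, 906 kept their direction and their side of the threshold, 9 lost a call, 7 gained one, 78 uncalled values changed sign or moved, and none reversed. Ms4a6d stayed between 3.78 and 3.91 in wildtype and between 3.76 and 3.99 in KO mice, Bin1 between -2.03 and -1.73 and between -1.94 and -1.64, and Picalm between 0.76 and 0.86 and between 1.06 and 1.24. Besides the calls of Abi3, App and Abca7 lost or gained without 1 mouse, Abi3 in wildtype was also not called when edgeR was fitted on the 2 wildtype groups alone (-0.81, adjusted p = 0.0972), where fewer samples give the spread. Without a fold threshold, Cd2ap was also called after LPS in wildtype (-0.29, adjusted p = 0.0291) and KO mice (-0.41, adjusted p = 0.00206) and App in KO mice (0.47, adjusted p = 0.00404), and between genotypes after LPS 1 member was higher (Picalm) and 1 lower (Abca7) in KO mice at the unadjusted p-value. With a replicate block, the members called were 3 higher and 3 lower in wildtype and 2 higher and 4 lower in KO mice, as without it, and Abi3 in wildtype had an adjusted p of 0.0349. Deviations of same-numbered mice from their group means correlated at -0.04 to 0.58 between wildtype LPS and PBS mice and 0.03 to 0.54 between KO LPS and PBS mice, where 2 of 4 and 3 of 5 mice correlated best with their own number. Between genotypes they correlated at -0.57 to 0.30 after LPS and -0.29 to 0.30 after PBS. These values between genotypes cannot decide whether LPS and PBS mice of a genotype were paired, and the labels state no pairing. The main fit did not take the numbers as pairing. Each member had 715 or more reads in every library, so that counting error was small beside the spread between mice.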
